A study of Mus musculus with 14 samples.

Results

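Cells of the mouse pre-B line BH1-Bcl2-Ik1ER that had been kept for 24 h without IL-7 were compared with the starting culture at time 0, to ask which genes of IL-7 withdrawal still differ when the reference is that culture and not a parallel culture kept with IL-7. The comparison rests on 4 of the 14 arrays of the series, 2 per group, and pairs them by experiment number. It covered 19938 genes, which are all genes with a probe set of 1 symbol, each read by its brightest probe set. BH1 cells lack Ikaros, a zinc finger transcription factor of lymphocytes. The line was made by retroviral transduction of Bcl2, which blocks apoptosis, and of Ikaros fused to the estrogen receptor, followed by cell sorting for both, so every group carries both proteins and no group lacks the fusion. The drug that activates the fusion, 4-hydroxytamoxifen (4OHT, 100 nM elsewhere in the series), was given to neither group compared here. IL-7 came as 8% medium conditioned by J558L cells that secrete it. The starting culture at time 0 was in this medium as well. Withdrawal left that medium out, so the loss of IL-7 and of the other contents of the conditioned medium cannot be told apart. Further groups are used beside them, namely 24 h with IL-7 and no 4OHT and the 24 h groups with 4OHT that had or lacked IL-7.

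IL-7 binds a receptor made of the IL-7 receptor alpha chain and the common gamma chain and acts through JAK kinases on the transcription factor STAT5, and through PI3 kinase and AKT, which keep FoxO transcription factors out of the nucleus. It drives the growth and division of pro-B and large pre-B cells. When the signal falls, pre-B cells are known to leave the cell cycle, FoxO factors become active and signalling from the pre-B cell receptor, which carries the surrogate light chain, gains weight.

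Values are log2 values from the robust multi-array average (RMA) method, and changes are log2 differences ± standard error (SE) with n = 2 arrays per group, tested two-sided with limma, in a model that holds the experiment as a block. P-values were adjusted by the Benjamini-Hochberg method across the 19938 genes, and a gene passed where the adjusted p was under 0.05. Precision is limited by the number of arrays (median SE 0.077). Array medians lay between 7.23 and 7.43, and correlations within groups between 0.9933 and 0.9965, lowest for time 0. Pre-B markers were read far above the median of all values, 7.33. Igll1 and Vpreb1, the surrogate light chain, were read at 13.87 and 13.87 and at 11.08 and 11.10 in the 2 time 0 arrays and at 13.90 and 13.91 and at 11.18 and 11.25 in the 2 arrays without IL-7. Cd79a, Cd79b, Pax5 and Ebf1 lay between 11.79 and 13.34 in these 4 arrays.

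Against time 0, 2339 genes passed (11.7% of those tested). Of these 793 were higher without IL-7 (3.98%) and 1546 were lower (7.75%), and each had the same sign in both experiments. Against 24 h with IL-7, 5499 genes passed (27.6%), 3106 higher (15.6%) and 2393 lower (12%). After renewed quantile normalization the lower genes were the more numerous there, with 2895 higher and 3207 lower, and without the experiment 2 array with IL-7 the counts were 1795 and 1861. The count that answers the question is that of withdrawal genes passing the same way against both references, and it was 2057 (10.3%), with 718 higher (3.6%) and 1339 lower (6.72%). Thus 23.1% of the withdrawal rises and 56.0% of the withdrawal falls also passed against time 0, and in the other direction of reading these made up 90.5% of the 793 rises and 86.6% of the 1546 falls against time 0. Both comparisons contain the same 2 arrays without IL-7, so the shares are descriptions, and the difference between them was not tested. The share was lower for rises than for falls under each of the 12 alternative settings, between 7.12% and 34% for rises and between 33.3% and 66.9% for falls.

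Large changes were mostly falls. At 2-fold or more, 5 genes rose and 237 fell against time 0, while 60 rose and 331 fell against 24 h with IL-7. Of those 60 rises 37 passed against time 0, and of the 331 falls 322 did. The count of 2339 depended on the arrays: it was 1244 without the experiment 1 time 0 array, 947 without the experiment 1 array without IL-7 and 1099 without the experiment as a block. The rises fell to 332, 264 and 284 in those fits, and to 313 without the experiment 2 array without IL-7. With each of the 4 arrays left out in turn, 133 rises and 654 falls passed every time, and a gene is called robust below where it did so.

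**Figure D1:**
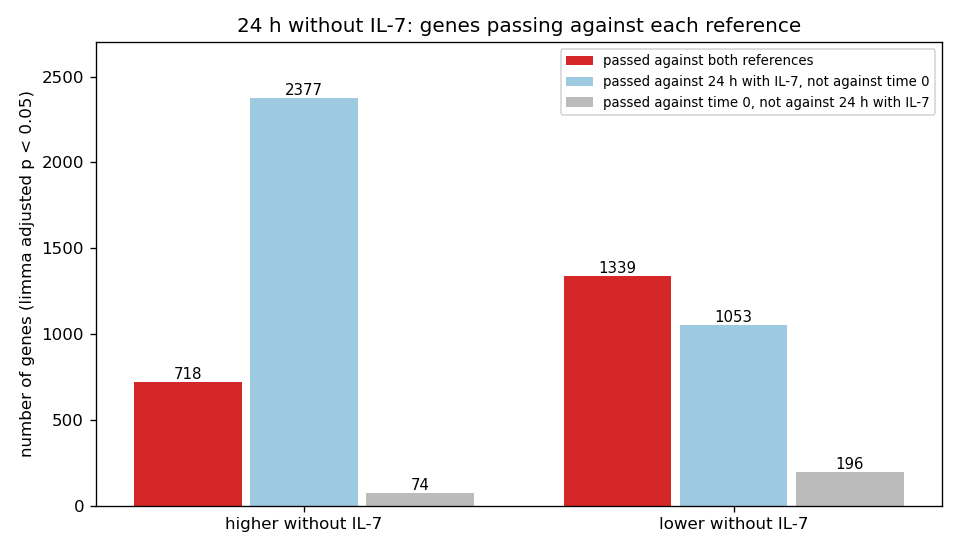
Number of genes (vertical axis) that passed limma's test at 24 h without IL-7, higher on the left and lower on the right, by the reference against which they passed. Among genes higher without IL-7, 718 passed against both references and 2377 against 24 h with IL-7 only, while among lower genes the counts were 1339 and 1053.

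The machinery of mitosis gave the largest falls against time 0. All 23 measured members of the list of G2 and mitosis genes fell, with a median of -1.66 where the median of all 19938 genes was 0.012, and all 23 were robust. In bulk RNA, fewer cells in a phase of the cycle and less RNA per cell cannot be told apart. Bub1, a kinase of the spindle checkpoint, was read at 11.49 and 11.32 at time 0 and at 9.52 and 9.40 after 24 h without IL-7, a change of -1.94 ± 0.10 (3.842-fold lower, limma adjusted p = 9.25e-08). Both arrays of each group lay close together, and the groups were far apart. Top2a, the topoisomerase that untangles chromosomes, went from 12.20 and 12.03 to 10.59 and 10.32. Kif11, a motor protein of the spindle, went from 12.12 and 11.94 to 10.59 and 10.24, and Ube2c, a ubiquitin-conjugating enzyme of mitotic exit, had the smallest fall of the list, -1.16 ± 0.09 (adjusted p = 1.4e-06). The falls of the 23 genes thus ranged from -1.94 to -1.16, and kinases, motors and kinetochore proteins were found across that range.

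Among all genes, the 12 largest falls that met the naming rule were Depdc1a, Fancd2, Kif4, Cenpi, Ncapg, Nuf2, Kif2c, Parpbp, Hmmr, Aspm, Mastl and Shcbp1, between -2.10 and -1.94, and all 12 were robust. Depdc1a fell from 9.64 and 9.37 to 7.56 and 7.25 (-2.10 ± 0.10, adjusted p = 6.58e-08). Fancd2, a protein of DNA crosslink repair, fell from 9.71 and 9.35 to 7.54 and 7.42 (-2.05 ± 0.14, adjusted p = 7.79e-07). Kif4 and Kif2c are kinesins, Cenpi and Nuf2 belong to the kinetochore, Ncapg is a subunit of the condensin complex that compacts chromosomes, and Mastl is a kinase needed to enter mitosis. Against 24 h with IL-7 the same 12 genes had differences between -2.46 and -1.93. Their 24 h change with IL-7 kept lay between -0.04 and 0.41 and passed for Ncapg (0.40 ± 0.10, adjusted p = 0.0271) and Nuf2 (0.33 ± 0.09, adjusted p = 0.031). Neither of these 2 calls held without the block (adjusted p = 0.348 and 0.516) or with 1 array left out (up to 0.245 and 0.291).

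**Figure D2:**
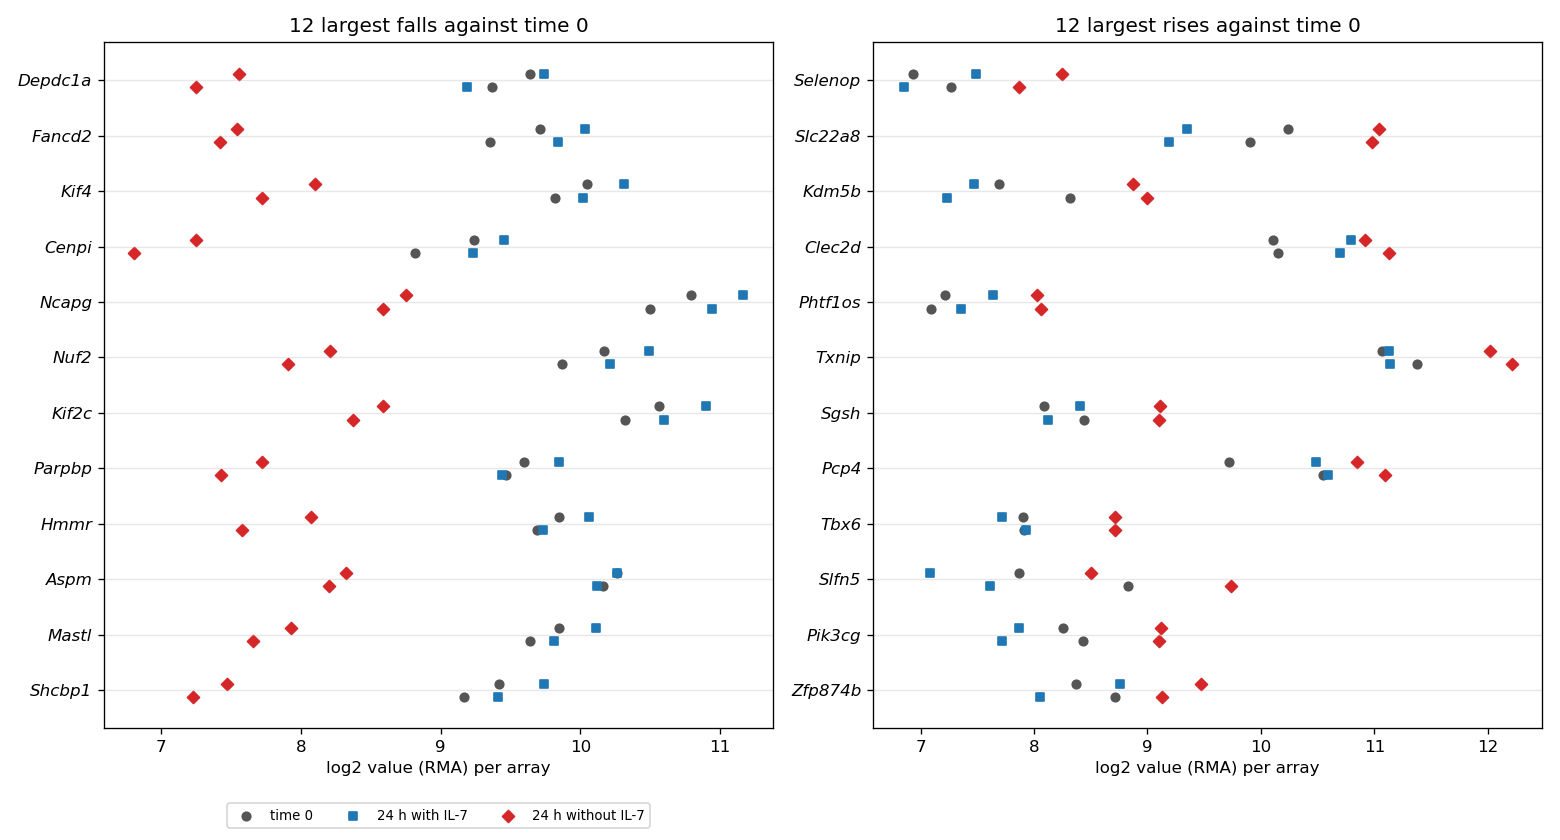
Log2 RMA value per array (horizontal axis) of the 12 genes with the largest falls (left) and the 12 with the largest rises (right) against time 0 under the naming rule, with experiment 1 above experiment 2 on each line. For the falls the arrays without IL-7 lie about 2 log2 units below both other groups, while for Slc22a8, Kdm5b, Slfn5 and Pik3cg the 24 h arrays with IL-7 lie below time 0.

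Promoters of mitotic genes are known to hold the cell cycle homology region, which the DREAM repressor complex binds. The letters TTTGAA, searched on both strands in the 300 bases around the RefSeq start, occurred in 14 of the 18 mitosis list members with a promoter in the table (77.8%) and in 17.3% of all 15614 genes with one. The promoters of Kif11, a list member, and of Aspm, a spindle pole protein among the 12 largest falls, are shown because they hold the motif, in capitals (TTCAAA is the same motif read on the other strand). Both are from RefSeq on build GRCm38.p6, plus strand, at chr19:37376132-37376431 for Kif11 and chr1:139454523-139454822 for Aspm. These genes, and the 3 promoters further on, were picked after the matches were seen.
Kif11: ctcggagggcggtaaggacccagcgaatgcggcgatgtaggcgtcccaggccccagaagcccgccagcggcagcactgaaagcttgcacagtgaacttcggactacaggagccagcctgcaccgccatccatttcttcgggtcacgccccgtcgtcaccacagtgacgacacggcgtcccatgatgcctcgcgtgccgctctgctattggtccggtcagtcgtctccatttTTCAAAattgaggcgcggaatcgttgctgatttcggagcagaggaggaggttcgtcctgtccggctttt
Aspm: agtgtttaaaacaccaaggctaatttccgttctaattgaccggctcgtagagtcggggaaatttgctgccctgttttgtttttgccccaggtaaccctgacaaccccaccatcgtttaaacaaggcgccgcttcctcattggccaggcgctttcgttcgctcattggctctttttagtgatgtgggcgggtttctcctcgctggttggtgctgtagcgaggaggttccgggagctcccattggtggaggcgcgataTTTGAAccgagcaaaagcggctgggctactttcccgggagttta

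DNA replication genes fell against time 0 as well, by less than against 24 h with IL-7. Of 33 measured members 32 passed, all lower, with a median of -0.91, and 27 were robust. Pole, the catalytic subunit of the leading strand polymerase, was read at 11.07 and 10.78 at time 0, at 11.34 and 11.42 after 24 h with IL-7 and at 9.25 and 9.28 without it (-1.66 ± 0.12 against time 0, adjusted p = 7.36e-07). The starting culture lay between the 24 h groups, nearer to the one with IL-7. Mcm2, a subunit of the replicative helicase, went from 11.64 and 11.21 to 10.43 and 10.50 (-0.96 ± 0.11, adjusted p = 9.62e-05), and its difference from 24 h with IL-7 was -1.39 ± 0.11 (adjusted p = 1.66e-06). The difference between the references is the 24 h change with IL-7 kept, which passed in 630 genes upwards (3.16%) and 1426 downwards (7.15%), or 957 and 1007 after renewed quantile normalization. Without the block it passed in 147 upwards and 470 downwards, and without the experiment 2 array with IL-7 in 95 and 214. Of the 33 replication genes 19 rose in it, and 0 did so without the block. Gins4, a member of the GINS complex of the helicase, was the replication gene that did not pass against time 0 (-0.32 ± 0.10, adjusted p = 0.0542).

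E2F factors switch on replication genes in late G1, and 2 forms of their site were searched in the same way. TTGGCGC occurred in 9 of 26 replication promoters (34.6%) against 3.85% of all genes, and TTCCCGC in 13 of 26 (50.0%) against 7.4%. Mcm5, another helicase subunit, went from 11.51 and 11.04 to 10.15 and 10.16 (-1.12 ± 0.12, adjusted p = 3.68e-05). Its promoter (RefSeq, GRCm38.p6, plus strand, chr8:75109259-75109558) held TTGGCGC at 2 places, both on the other strand, as the capitals mark.
Mcm5: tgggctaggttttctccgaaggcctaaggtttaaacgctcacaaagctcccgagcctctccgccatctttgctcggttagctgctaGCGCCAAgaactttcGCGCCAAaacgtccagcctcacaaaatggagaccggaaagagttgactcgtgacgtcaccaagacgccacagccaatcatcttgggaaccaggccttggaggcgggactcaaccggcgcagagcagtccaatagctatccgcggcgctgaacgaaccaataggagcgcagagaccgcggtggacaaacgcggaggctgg

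Of the G1 cyclins, kinases and E2F factors, 12 of 17 fell and none rose (median -0.43), 8 of them robustly. E2f8 and E2f7, repressors that limit the E2F programme, fell by 1.70 and 1.39 on the log2 scale, and Ccne1, cyclin E, fell from 10.07 and 9.49 to 8.51 and 8.38 (-1.33 ± 0.14, adjusted p = 3.66e-05). Cdk4, the kinase partner of D cyclins, was read at 13.33 and 13.30 against 13.20 and 13.19 and did not pass (adjusted p = 0.235). Rbl1 (-0.87 ± 0.09, adjusted p = 1.95e-05), a pocket protein, and the kinase inhibitors Cdkn2c (-0.63 ± 0.08, adjusted p = 0.000129) and Cdkn2d (-0.55 ± 0.07, adjusted p = 0.000189) fell too, 3 of 9 on their list, all robust. Cdkn1b, which encodes the inhibitor p27, was read at 10.96 and 11.04 and then at 11.22 and 11.24 and did not pass (adjusted p = 0.0869).

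Enzymes that make nucleotides fell with replication. Of 27 measured members 19 passed, all lower (median -0.61), and 17 were robust. Mthfd2, a mitochondrial enzyme of one-carbon metabolism, had the largest fall, from 10.38 and 9.88 to 8.35 and 8.45 (-1.73 ± 0.11, adjusted p = 4.2e-07). Rrm2, the small subunit of ribonucleotide reductase, fell from 12.30 and 11.91 to 10.73 and 10.56, and Tyms, thymidylate synthase, from 11.07 and 10.68 to 9.56 and 9.43. Enzymes of purine synthesis fell by less, for example Gart by -0.53 ± 0.10 (adjusted p = 0.00322, and 0.0544 without the experiment 1 array without IL-7). Against 24 h with IL-7 the list median was -1.15, with 24 members lower and 2 higher.

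Genes of the growth programme fell against time 0 with smaller sizes. Myc, the transcription factor that drives ribosome and nucleotide synthesis, was read at 12.55 and 12.49 at time 0, at 12.88 and 12.86 after 24 h with IL-7 and at 12.10 and 12.05 without it. The change against time 0 was -0.45 ± 0.10 (adjusted p = 0.00805, and 0.0797 without the experiment 1 array without IL-7). Of 29 ribosome biogenesis genes 17 fell and none rose (median -0.37), while 28 fell against 24 h with IL-7 and 22 rose during 24 h with IL-7. Without the experiment 1 time 0 array 8 of them passed, without the experiment 1 array without IL-7 7, and without the block 11. The 22 rises with IL-7 kept came to 9 without the block. Nhp2, a protein of small nucleolar RNA complexes, fell from 10.25 and 9.94 to 9.43 and 9.34 (-0.71 ± 0.08, adjusted p = 7.03e-05), and Fbl, the fibrillarin methyltransferase, from 11.06 and 10.80 to 10.40 and 10.46. Polr1b, a subunit of RNA polymerase I, had -0.41 ± 0.08 (adjusted p = 0.00583), not robust. The E-box CACGTG of MYC and MAX occurred in 4 of 23 of their promoters (17.4%) and in 9.5% of all genes.

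Other growth lists moved the same way. Of 18 cytoplasmic aminoacyl-tRNA synthetases, which charge tRNAs, 14 fell (median -0.41), but 9 did so without the experiment 1 time 0 array, 3 without the experiment 1 array without IL-7, and 3 were robust. Of the 19 ATF4 and amino acid response genes 10 fell, 6 of them robustly, among them Asns, asparagine synthetase (-1.33 ± 0.18, adjusted p = 0.000268), and the amino acid transporter Slc7a5, from 11.46 and 11.08 to 9.85 and 10.19 (-1.25 ± 0.15, adjusted p = 8.78e-05). Of 18 glycolysis genes 8 fell and 3 were robust, with Hk2, the first enzyme of the pathway, at -0.59 ± 0.09 (adjusted p = 0.000553). The polyamine enzymes Srm (-0.64 ± 0.13, adjusted p = 0.00633) and Odc1 (-0.67 ± 0.14, adjusted p = 0.00741) passed and were not robust. Of 19 heat shock and chaperonin genes 9 fell, of which 1 was robust, and without the block 2 passed.

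Counts for mitochondrial and ribosomal proteins depended on single arrays and on the block. Of 77 mitochondrial ribosomal proteins 27 passed, all lower (median -0.21), against 1 without the block, 5 without the experiment 1 time 0 array and 3 without the experiment 1 array without IL-7. Of 34 respiratory complex I subunits 9 passed, all lower, and without the block none did. Cytoplasmic ribosomal proteins gave 4 falls among 55 members (median -0.06), near the share of 7.75% that fell over all genes. Robust falls numbered 3 among the mitochondrial ribosomal proteins, 2 among the complex I subunits and 0 among the cytoplasmic ribosomal proteins.

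Genes of cholesterol synthesis and uptake fell further against time 0 than against 24 h with IL-7. Of 20 measured members 19 fell against time 0 and none rose (median -1.14), and 18 were robust. Against 24 h with IL-7, 15 fell and 1 rose (median -0.41), with 8 falls without the experiment 1 array with IL-7 and 10 without either array lacking IL-7. In 24 h with IL-7 kept 17 fell (median -0.60). Cyp51, the lanosterol demethylase, was read at 10.57 and 11.00 at time 0, at 10.03 and 9.81 after 24 h with IL-7 and at 8.85 and 8.95 without it. It fell by 1.89 ± 0.14 on the log2 scale against time 0 (3.698-fold lower, adjusted p = 9.37e-07), by 1.02 ± 0.14 against 24 h with IL-7 (adjusted p = 9.7e-05) and by 0.86 ± 0.14 with IL-7 kept (adjusted p = 0.00247, and 0.0556 without the experiment 2 array with IL-7). All 3 groups were separate, in falling order from time 0 to 24 h without IL-7.

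Members of the pathway split by how much of the fall was also seen with IL-7. Sqle, squalene epoxidase, went from 10.91 and 11.26 through 10.64 and 10.36 with IL-7 to 9.40 and 9.45 without it, and Stard4, a sterol carrier, went from 10.07 and 10.41 through 10.20 and 10.00 to 9.13 and 9.10. Nsdhl, a sterol dehydrogenase, went from 11.35 and 11.67 to 10.65 and 10.52 with IL-7 and 10.29 and 10.36 without it, and passed against time 0 (-1.19 ± 0.09, adjusted p = 2.1e-06) and not against 24 h with IL-7 (adjusted p = 0.0513). Insig1, which holds the sterol sensor in the endoplasmic reticulum, fell by 0.64 ± 0.10 against time 0 (adjusted p = 0.000898) and differed by 0.04 ± 0.10 from 24 h with IL-7 (adjusted p = 0.827). Tm7sf2, a sterol reductase, was the member that did not pass (0.24 ± 0.09, adjusted p = 0.111). Srebf2, which encodes the transcription factor of the pathway, fell from 11.36 and 11.69 to 10.72 and 10.91 (-0.71 ± 0.10, adjusted p = 0.000278).

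Hmgcs1, which makes the precursor of mevalonate, fell from 11.66 and 12.01 to 10.42 and 10.26 (-1.50 ± 0.13, adjusted p = 5.05e-06). The sterol regulatory element TCACCCCAC, the site of SREBP factors in its best known form, occurred in 1 of 16 list promoters (6.25%) and in 0.634% of all genes. The match is in Hmgcs1, whose promoter (RefSeq, GRCm38.p6, plus strand, chr13:119690101-119690400) is shown with the element in capitals.
Hmgcs1: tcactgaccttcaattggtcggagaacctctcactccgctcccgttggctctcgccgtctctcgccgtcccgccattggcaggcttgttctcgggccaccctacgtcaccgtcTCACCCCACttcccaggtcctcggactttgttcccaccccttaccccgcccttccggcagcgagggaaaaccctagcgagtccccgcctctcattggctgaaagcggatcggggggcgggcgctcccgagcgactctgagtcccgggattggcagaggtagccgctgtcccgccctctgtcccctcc

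Fatty acid genes under the same family of factors fell in 9 of 14 cases (median -0.33), 6 robustly. Fads2, a desaturase, fell from 11.21 and 11.54 to 9.95 and 10.19 (-1.30 ± 0.09, adjusted p = 5.25e-07), Scd2, another desaturase, by -1.23 ± 0.13 (adjusted p = 2.67e-05) and Fasn, fatty acid synthase, by -0.84 ± 0.07 (adjusted p = 6.95e-06).

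**Figure D3:**
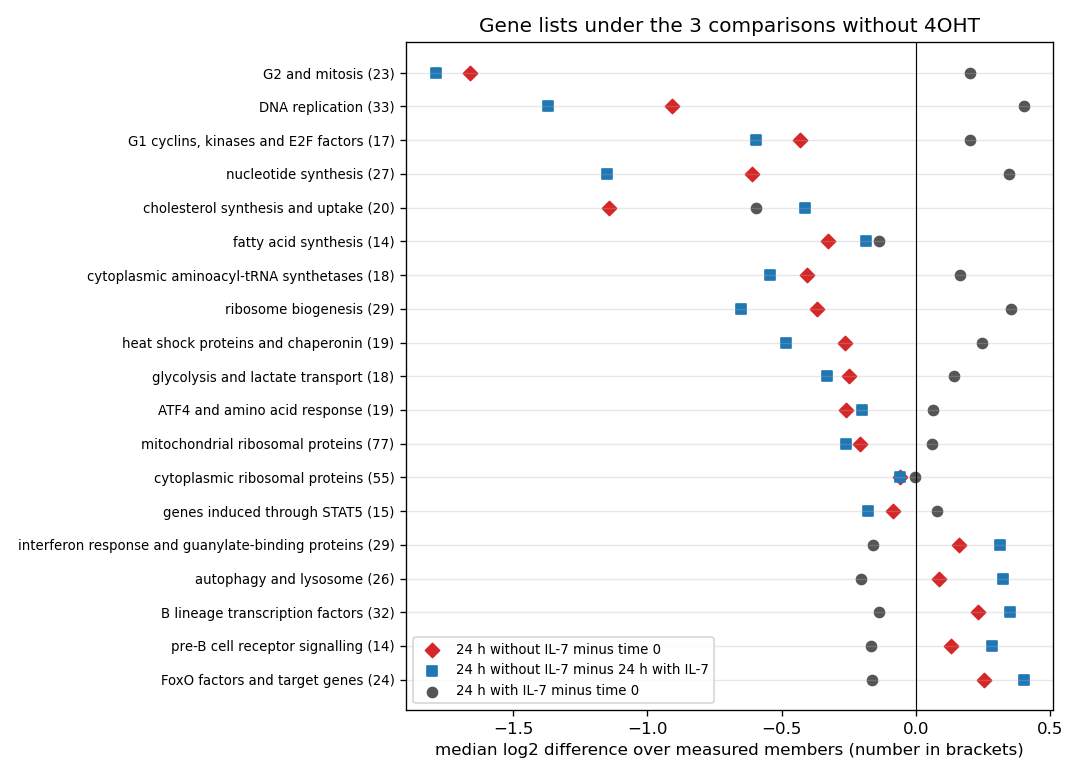
Median log2 difference over the measured members (horizontal axis, number of members in brackets) of 19 of the 41 gene lists, picked after the values were seen, for 3 comparisons without 4OHT. Mitosis genes lie at -1.66 against time 0 and at -1.79 against 24 h with IL-7. Cholesterol synthesis is shifted further against time 0 (-1.14) than against 24 h with IL-7 (-0.41).

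The feedback inhibitors Cish and Socs2 differed from 24 h with IL-7 and did not pass against time 0. Cish, a feedback inhibitor that STAT5 induces, was read at 8.27 and 8.27 at time 0, at 9.52 and 9.58 after 24 h with IL-7 and at 8.22 and 8.18 without it. Its difference was -0.07 ± 0.08 against time 0 (adjusted p = 0.704) and -1.36 ± 0.08 against 24 h with IL-7 (adjusted p = 1.1e-07), and the references differed by 1.28 ± 0.08 (adjusted p = 7.24e-06). Socs2, a second feedback inhibitor, was read at 11.54 and 11.74, then 12.96 and 12.84 with IL-7 and 11.33 and 11.40 without it, and did not pass against time 0 (-0.27 ± 0.10, adjusted p = 0.109). Ccnd2, cyclin D2, passed with -0.43 ± 0.09 against time 0 (adjusted p = 0.00626, and 0.0878 without the experiment 1 array without IL-7), next to -1.79 ± 0.09 against 24 h with IL-7. Of the 15 genes on the list of genes induced through STAT5, 3 passed against time 0, all lower (Myc, Ccnd2 and Ccnd3), and 0 of them robustly. Against 24 h with IL-7, 5 of the 15 were lower and 1 was higher, next to 12% and 15.6% of all genes. A p that misses the threshold does not show that the levels were equal.

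The STAT site TTCNNNGAA was found in 2 of 11 promoters of that list (18.2%) and in 8.99% of all genes. The promoter of Cish (RefSeq, GRCm38.p6, plus strand, chr9:107296409-107296708) held it at 2 places, in capitals.
Cish: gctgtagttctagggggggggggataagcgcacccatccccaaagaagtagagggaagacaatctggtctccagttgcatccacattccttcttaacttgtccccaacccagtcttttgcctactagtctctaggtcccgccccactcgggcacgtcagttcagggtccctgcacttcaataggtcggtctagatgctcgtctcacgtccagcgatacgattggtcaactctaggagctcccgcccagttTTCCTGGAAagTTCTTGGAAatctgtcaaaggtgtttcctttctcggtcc

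The largest withdrawal changes that did not pass against time 0 were, upwards, Gbp4, Gbp11, Gbp8, Gbp9 and Hpgds, and, downwards, Nrxn3, Socs2, Cish, Lfng and Ifitm1. The guanylate-binding proteins of this list are GTPases of cell-autonomous immunity. Gbp4 was read at 10.25 and 9.54 at time 0, at 7.69 and 7.54 after 24 h with IL-7 and at 9.96 and 9.82 without it, so its difference of 2.27 ± 0.20 from 24 h with IL-7 (adjusted p = 3.17e-06) stood beside one of 0.00 ± 0.20 from time 0 (adjusted p = 0.995). Gbp8 and Gbp11 behaved likewise, at 10.69 and 10.22 and at 10.19 and 10.37 at time 0 and at 10.78 and 10.54 and at 10.28 and 10.64 without IL-7. Lfng, a glycosyltransferase that modifies Notch, went from 8.32 and 8.48 to 9.55 and 9.47 with IL-7 and was at 8.07 and 8.37 without it. In these 10 genes the 24 h arrays with IL-7 stood apart from the other 4, which largely restates the rule that picked them.

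Across the interferon and guanylate-binding protein list 1 of 29 rose and 1 fell against time 0, next to 12 and 2 against 24 h with IL-7. The shares of all genes were 3.98% and 7.75% against time 0, and 15.6% and 12% against 24 h with IL-7. Apart from the 12 rises, the counts of the list did not exceed those shares. Against time 0, 5 rose without the experiment 1 array lacking IL-7 and 4 in a fit to the compared arrays only, while 0 rose without the block. Bst2, an antiviral membrane protein, was the fall (-0.54 ± 0.10, adjusted p = 0.00419, and 0.0842 without the experiment 1 array without IL-7), and Oasl2 the rise (0.62 ± 0.18, adjusted p = 0.0388, and up to 0.341 with 1 array left out). Over all genes, 2377 withdrawal rises and 1053 withdrawal falls did not pass against time 0. The test of the difference between the comparisons is that of the 24 h change with IL-7 kept. By the choice of these genes it could pass only in the opposite direction. It passed for 991 of these rises and 239 of these falls. Without the block it did so for 322 and 71, and without the experiment 2 array with IL-7 for 141 and 46. For the others a difference between the references was not shown.

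**Figure D4:**
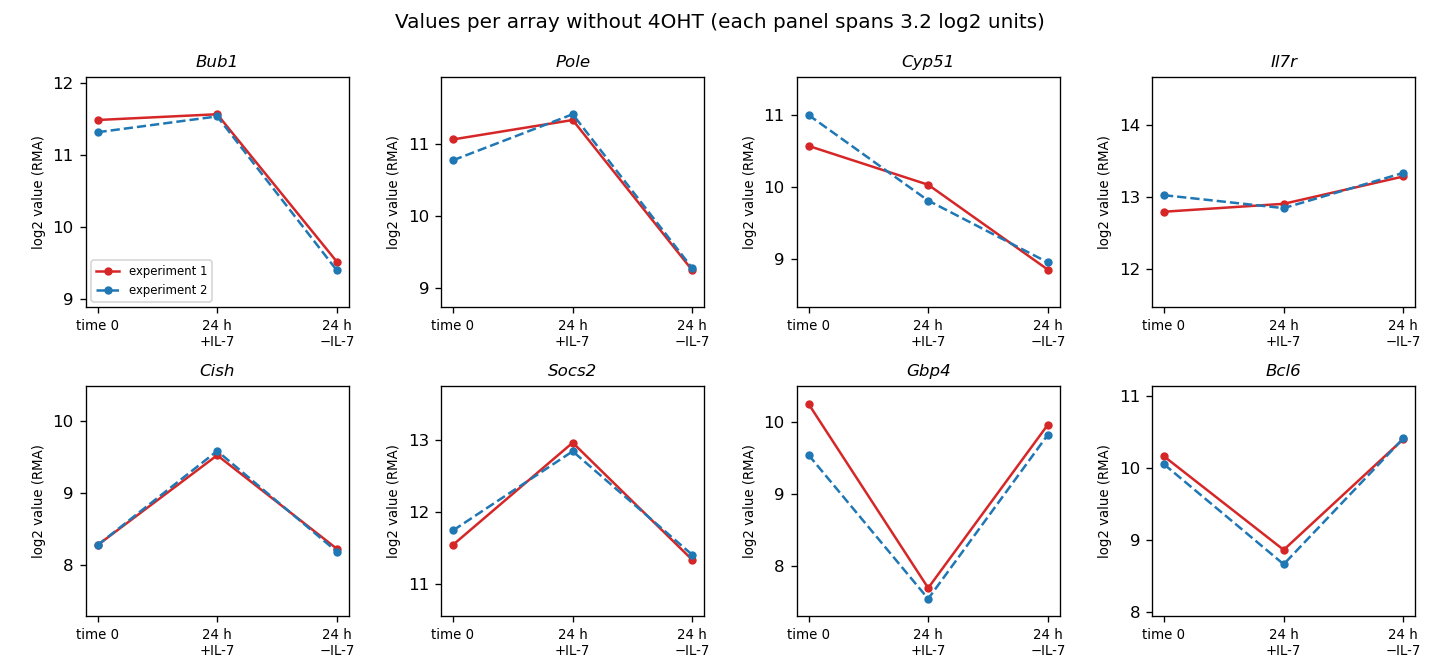
Log2 RMA value per array (vertical axis, the same span in each panel) at time 0, after 24 h with IL-7 and after 24 h without IL-7 for 8 genes, picked after the values were seen, with experiment 1 solid and experiment 2 dashed. Bub1 and Pole lie lowest in the arrays without IL-7, Cyp51 falls in both 24 h groups, and Cish, Socs2, Gbp4 and Bcl6 depart from time 0 mainly in the arrays with IL-7.

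Rises against time 0 were small. The 12 largest under the naming rule were Selenop, Slc22a8, Kdm5b, Clec2d, Phtf1os, Txnip, Sgsh, Pcp4, Tbx6, Slfn5, Pik3cg and Zfp874b, from 0.96 down to 0.75, of which Zfp874b, Slfn5 and Pcp4 were not robust. Txnip, which binds thioredoxin and restrains glucose uptake, was read at 11.07 and 11.38 at time 0, at 11.13 and 11.14 after 24 h with IL-7 and at 12.02 and 12.21 without it. Its change was 0.89 ± 0.08 (1.851-fold higher, adjusted p = 4.98e-06), close to that against 24 h with IL-7 (0.98 ± 0.08, adjusted p = 1.04e-06). Selenop, a secreted selenium carrier, had the largest rise under that rule, which leaves out the 5 genes at 2-fold or more, and went from 6.93 and 7.27 to 8.25 and 7.87 (0.96 ± 0.17, adjusted p = 0.00293). Those 5, named here after their values were seen, were C030016D13Rik (1.47), 1 variable segment of the kappa light chain and the microRNA genes Mir181b-1 (1.30), Mir181a-1 (1.18) and Mirlet7f-1 (1.01). Pik3cg, a catalytic subunit of PI3 kinase, rose from 8.26 and 8.43 to 9.12 and 9.10 (0.76 ± 0.11, adjusted p = 0.000353), and Kdm5b, a histone demethylase, from 7.69 and 8.32 to 8.87 and 9.0. Sgsh is a lysosomal sulfatase, and it went from 8.09 and 8.44 to 9.11 and 9.10 (0.84 ± 0.16, adjusted p = 0.00329).

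Clec2d, a C-type lectin, rose in both 24 h groups: it was read at 10.11 and 10.15 at time 0, at 10.79 and 10.70 with IL-7 and at 10.92 and 11.13 without it. The larger part of its 0.90 ± 0.08 against time 0 (adjusted p = 7.64e-06) was present with IL-7 kept (0.62 ± 0.08, adjusted p = 0.000935). In the arrays with 4OHT its withdrawal change was -0.03 ± 0.08 (adjusted p = 0.804).

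FoxO factors and their targets rose in 6 of 24 cases and none fell (median 0.26), next to 17 against 24 h with IL-7. The 6 were Txnip, Gadd45b, Il7r, Cited2, Foxo3 and Bcl6, of which Txnip was robust. Without the experiment 2 time 0 array 15 rose, without any other 1 of the compared arrays 2, and without the block 3. Il7r, the IL-7 receptor alpha chain, went from 12.79 and 13.02 to 13.28 and 13.33 (0.40 ± 0.08, adjusted p = 0.00406, and up to 0.0589 with 1 array left out). Bcl6, a repressor of small pre-B cells, was read at 10.16 and 10.05 at time 0, at 8.86 and 8.66 with IL-7 and at 10.40 and 10.41 without it. Its rise was 0.30 ± 0.07 against time 0 (adjusted p = 0.019, and up to 0.15 with 1 array left out) and 1.65 ± 0.07 against 24 h with IL-7 (adjusted p = 1.89e-08). Foxo1 itself was read at 9.78 and 9.98 and then at 10.10 and 10.04 and did not pass (adjusted p = 0.298). The FoxO site GTAAACA occurred in 3 of 19 promoters of the list (15.8%) and in 3.54% of all genes.

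Transcription factors of the B lineage rose in 11 of 32 cases and none fell (median 0.23), and 22 rose against 24 h with IL-7. The 11 were Ikzf3, Lef1, Sox4, Foxp1, Spib, Mef2c, Bcl6, Ebf1, Irf8, Spi1 and Aff3, with changes between 0.26 and 0.39. None was robust: without the experiment 1 time 0 array 0 passed, without either 1 of the arrays lacking IL-7 3 passed, and without the block 5. Ikzf3, which encodes Aiolos, a relative of Ikaros, had 0.38 ± 0.08 (11.85 and 12.20 to 12.37 and 12.43, adjusted p = 0.00624, and up to 0.0823 with 1 array left out). Except for Bcl6 and Spi1, the experiment 1 time 0 array was the lower of its pair in each of these factors. Ikzf1 was read at 13.04 and 13.19 and at 13.26 and 13.28 and did not pass (adjusted p = 0.13), and its probe positions were not used here, so native and transduced transcripts cannot be told apart.

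Pre-B cell receptor signalling genes rose in 5 of 14 cases (median 0.13). Dok3, an adaptor that dampens the signal, was the robust one, from 11.71 and 11.79 to 12.10 and 12.13 (0.36 ± 0.06, adjusted p = 0.0024), while Blnk, Syk, Btk and Sh3bp2 lost the call without the experiment 1 time 0 array (1 of 14 passed then). Of 22 markers of small pre-B and later B cells 3 rose and 1 fell (median 0.09), next to 3.98% and 7.75% of all genes. Against 24 h with IL-7, 4 were higher and 2 lower, near the shares of all genes, 15.6% and 12%. Cd37 (0.35 ± 0.06, adjusted p = 0.00304) and Cd72 (0.38 ± 0.07, adjusted p = 0.00212) rose robustly, and Cd69, an activation antigen, was the fall, from 10.76 and 10.59 to 9.47 and 9.74 (-1.07 ± 0.11, adjusted p = 1.86e-05). Rag1 and Rag2, the recombinase of the antigen receptor loci, lay below 7.33 on these arrays, at 5.66 and 5.82 and at 4.65 and 4.46 at time 0, and did not pass (adjusted p = 0.749 and 0.998). Of the recombination and end joining list 4 of 11 fell, of which Hmgb2, a DNA-bending cofactor that is also high in dividing cells, was robust (-1.21 ± 0.10, adjusted p = 4.49e-06). Light chain constant and joining segments were not analysed here.

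Smaller groups changed in few members. Itgav, an integrin chain, rose (0.46 ± 0.07, adjusted p = 0.000868) and Cd44, a hyaluronan receptor, fell (-0.62 ± 0.06, adjusted p = 2.88e-05). Of 21 adhesion genes 2 rose and 2 fell, next to 3.98% and 7.75% of all genes. Only the falling share lay near that of all genes, and the list is small. Of 26 autophagy and lysosome genes 4 rose, 0 robustly, next to 19 against 24 h with IL-7. Nfkbia, the inhibitor of NF-kappaB, rose (0.42 ± 0.08, adjusted p = 0.00369), as 3 of 15 on its list did, of which 1 was robust. The count was 1 without the block and 7 after renewed quantile normalization. In the BCL2 family Bmf rose (0.53 ± 0.10, adjusted p = 0.00457, and up to 0.0655 with 1 array left out) and Bid fell (-0.33 ± 0.10, adjusted p = 0.0471, and up to 0.334), and Bcl2, which is transduced in this line, was read at 8.29 and 8.32 and then at 8.28 and 8.38.

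Among the 74 rises and 196 falls that passed against time 0 and not against 24 h with IL-7, the largest rises were Pcp4, Apoc4, Nrep, Plac8 and C5ar2 and the largest falls Nsdhl, Ckmt1, H2bc8, Lmcd1 and Cd28. The 24 h change with IL-7 kept passed the same way for 19 of these rises and 67 of these falls. For the others such a change was not shown, among them Pcp4, Plac8 and Cd28 (limma adjusted p = 0.241, 0.13 and 0.214). C5ar2, a receptor for complement fragment C5a, was read at 8.02 and 8.21 at time 0, at 8.48 and 8.73 with IL-7 and at 8.49 and 8.68 without it (0.47 ± 0.09, adjusted p = 0.00302). The 24 h groups did not differ in it beyond their spread (-0.02 ± 0.09, adjusted p = 0.91). Lmcd1, a LIM domain protein, fell from 9.60 and 9.72 to 9.08 and 8.72 with IL-7 and 8.63 and 8.64 without it (-1.02 ± 0.12, adjusted p = 9.21e-05). Cd28 rested on 1 array, since time 0 was read at 8.30 in experiment 1 and 6.80 in experiment 2 and the arrays without IL-7 at 6.86 and 6.38, and its adjusted p of 0.0269 rose to 0.267 with 1 array left out.

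Opposite calls against the references were rare. Chn2, a GTPase-activating protein, was the gene above time 0 (0.36 ± 0.10, adjusted p = 0.0329) and below 24 h with IL-7 (-0.38 ± 0.10, adjusted p = 0.0106), and both calls were lost with 1 array left out (up to 0.258 and 0.123). A further 11 genes were below time 0 and above 24 h with IL-7, the largest being Samd5, Chl1, Aldoc, Kcnmb4 and Sv2a. Aldoc, a brain-type aldolase, was read at 8.99 and 9.14 at time 0, at 8.40 and 8.04 with IL-7 and at 8.61 and 8.47 without it (-0.52 ± 0.09 against time 0, adjusted p = 0.00229). Its call against time 0 was the robust one of the 5, while that against 24 h with IL-7 was lost with 1 array left out (adjusted p up to 0.264) and without the block (0.0717).

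The arrays with 4OHT share no array with the comparison against time 0, though the spread of each gene comes from the same fit. In them 3722 genes were higher without IL-7 (18.7%) and 2848 lower (14.3%). Of the 793 rises against time 0, 639 rose in these arrays (80.6% of the 793 and 17.2% of the 3722), and 11 went the other way. Of the 1546 falls 1331 fell (86.1% and 46.7%), and 21 went the other way. Depdc1a, for example, had -2.10 ± 0.10 against time 0 and -1.85 ± 0.10 with 4OHT, and Txnip 0.89 ± 0.08 and 0.99 ± 0.08, whereas Myc had -0.45 ± 0.10 and -3.27 ± 0.10 and Ccnd2 -0.43 ± 0.09 and -3.07 ± 0.09. The differences between these pairs of values were not tested.

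Markers of other cells were mostly low. Of 13 T cell, 9 natural killer, 14 myeloid, 8 erythroid and megakaryocyte, 7 plasma cell and 11 stromal markers, 4, 2, 2, 1, 4 and 4 had a mean above the median of all values in at least 1 of the 3 groups without 4OHT. Against time 0, Cd28 and the natural killer gene Nkg7 (-0.49 ± 0.15, adjusted p = 0.0481, and up to 0.424 with 1 array left out) fell, the plasma cell genes Mzb1 (0.47 ± 0.06, adjusted p = 0.000138) and Sdc1 (-0.44 ± 0.10, adjusted p = 0.00958, and up to 0.123) rose and fell, and no myeloid, erythroid, megakaryocyte or stromal marker passed. The mean log2 value of the T cell list was 6.59 and 6.43 at time 0 and 6.44 and 6.44 without IL-7, and that of the natural killer list 5.68 and 5.58 and then 5.63 and 5.54. The part of other cells in the results was not tested.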

How the data were processed

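Gene expression was measured on 14 microarrays of 1 cell line, in 7 groups of 2 taken from the sample titles, from 150 ng of total RNA each per the labels' protocols. The deposited table holds log2 values of 35556 probe sets, which the authors made with Affymetrix Expression Console 1.1 and RMA per the submitters' processing notes. RMA scales the arrays to each other, so a change is read relative to other genes and not as an absolute amount. The array medians still differed, from 7.227 to 7.425, and in every group experiment 2 had the higher one. Small changes can therefore depend on the scaling, and the counts after renewed quantile normalization are given for this reason. The table was used with no further scaling. Scanner intensities were not used here, and neither detection limits nor saturation could be read. For the probes, genome build and positions were not given in the sources used here. The probe annotation gave 1 symbol to 21789 probe sets, several to 1621 and none to 12146.

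A single fit over all arrays was made in R 4.3.3 with lmFit and eBayes of limma 3.58.1 (a mean per group, 6 residual and 6.58 prior degrees of freedom), and was checked on simulated data. The experiment number, which the labels give to 2 independent experiments, entered as a block: same-numbered arrays deviated together in all 21 pairs of groups (correlations 0.124 to 0.631). The block takes out the mean difference between these 2 experiments. P-values thus cover only the spread between arrays of a group that remains, pooled over the 7 groups, in 1 line.

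Named genes were the 12 largest rises and falls that passed, had the same sign in both experiments and lay above 7.33 in the higher group, without predicted genes, receptor segments, olfactory receptors or small RNAs, then up to 5 each way per class of genes by reference, list members and a few fixed genes. Members, lists and motifs were chosen with earlier results of these data known, and the motifs TTTGAA and TCACCCCAC were added after the list results had been seen. No set test was run. The alternatives were no block, only the compared arrays, each array left out, renewed quantile normalization, no dim genes, the mean of all probe sets, an intensity trend and a 2-fold minimum.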

Additional observations from a re-analysis of the deposited data

Results flagged for a closer look

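A group of 10 genes of the naming rule passed against time 0 in opposite directions with and without IL-7. The difference between those changes is the 24 h comparison with and without IL-7. Because the genes were picked for opposite calls, that difference had to pass for each. Its p-values are therefore a description and add no support. The 5 that rose without IL-7 were Slc22a8, an organic anion transporter (0.94 without IL-7 and -0.80 with it, limma adjusted p of the difference = 8.08e-08), Kdm5b (0.93 and -0.66, 1.8e-05), Slfn5 (0.77 and -1.0, 5.84e-06), Pik3cg (0.76 and -0.55, 1.34e-06) and Cstad (0.71 and -0.81, 9.25e-08). The 5 that fell without IL-7 were Ncapg (-1.98 and 0.40, 1.72e-08), Nuf2 (-1.96 and 0.33, 1.28e-08), Ska3 (-1.92 and 0.31, 1.28e-08), Ttk (-1.89 and 0.43, 4.58e-08) and Ccnf (-1.72 and 0.33, 1.73e-08). The change with IL-7 kept passed with each array left out in turn, and without the block, for Slc22a8 and Cstad; for the other 8 the call was lost with 1 array left out (adjusted p up to 0.35), and without the block it was lost for all of these but Pik3cg. Both changes are measured from the same time 0 arrays, so a deviation of those arrays moves both. In Slfn5 the time 0 arrays were read at 7.87 and 8.83, and its call against time 0 was lost without the experiment 1 time 0 array or the experiment 2 array without IL-7 (adjusted p up to 0.123).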

How the results depend on the processing

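Without the experiment as a block (no replicate block), 1099 genes passed against time 0 in place of 2339, 998 against both references in place of 2057 and 617 in 24 h with IL-7 in place of 2056, while the counts for withdrawal stayed within 1.5 times. At 2-fold or more the counts were 242 against time 0, 391 against 24 h with IL-7, 30 for 24 h with IL-7, 613 for withdrawal with 4OHT and 218 against both references. With only the compared arrays 972 genes passed in 24 h with IL-7. Leaving out 1 array at a time gave 947 to 2262 genes against time 0, 3656 to 4946 against 24 h with IL-7, 309 to 2698 in 24 h with IL-7 and 858 to 2003 against both references, with fewer samples in each fit. The experiment 2 array with IL-7 gave the 3656 and the 309, and without the experiment 2 time 0 array 476 genes passed in 24 h with IL-7. Renewed quantile normalization turned the split in 24 h with IL-7 from 630 higher and 1426 lower to 957 and 1007. Of the results for single genes, 1356 kept direction and side of the threshold, 103 no longer passed, 32 came to pass and 19 changed sign without passing in either fit. With 1 array left out at a time, these differences from time 0 took both signs: Bcl2 (-0.02 to 0.069), Gbp4 (-0.418 to 0.41), Gbp9 (-0.256 to 0.505), Ifitm1 (-0.166 to 0.042), Mycn (-0.212 to 0.014), Nrxn3 (-0.438 to 0.015), Rag1 (-0.009 to 0.11) and Rag2 (-0.13 to 0.132). So did these from 24 h with IL-7: Bcl2 (-0.035 to 0.054), C5ar2 (-0.064 to 0.022), Rag1 (-0.073 to 0.046) and Rag2 (-0.332 to 0.039). After renewed quantile normalization Gbp4 had 0.032 against time 0 and Bcl2 -0.083 against 24 h with IL-7. The cause of these shifts was not tested. With 2 arrays per group, changes near the median SE of 0.077 cannot be resolved.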
